A study of Saccharomyces cerevisiae with 16 samples.

Results

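The ribosome footprints of *eIF3i DDKK* cells are described here as shares of reads: of every 100 footprint reads counted on coding sequences, how many lay on each gene, and how those shares differed between mutant and wild-type (WT) cells. The members are the 5244 of 5647 budding yeast genes that passed the minimum of mRNA reads given in the study's methods, summed over the 4 mRNA libraries of this strain background, and the readout is 4 of the 16 libraries of the series, 2 footprint libraries from *eIF3i DDKK* cells and 2 from the isogenic WT. The series profiled footprints and mRNA of 2 mutants, *eIF3i DDKK* and the *eIF3a/b Degron*, each with its own WT and with 2 biological replicates per group. The Degron strains, used here for comparison, were *MATa* with *trp1∆*, *ura3-52*, a *leu2* allele, *gcn2::hisG* and *UBR1* under the *GAL1* promoter. Their mutant held temperature-sensitive degron alleles of *TIF32* and *PRT1* under the *CUP1* promoter, and their WT held a *URA3* plasmid. In the DDKK background, *eIF3i DDKK* cells carried a plasmid with HA-tagged *TIF34* in which aspartates 207 and 224, counted from the initiator methionine, were changed to lysine (D207K and D224K). WT cells of this background carried the same plasmid with unchanged *TIF34*. Both strains of the DDKK background were *MATa*, lacked the chromosomal gene (*tif34∆*) and shared *trp1∆*, *ura3-52::GCN2* and a *leu2* allele. The genotype also lists "hc TIF34 URA3", and the sources used here do not state whether that plasmid had been lost. Mutant and WT cultures were treated alike, with growth at 30°C in SC medium, a shift to 37°C for 30 min and cycloheximide for 2 min before harvest. The heat shift is thus shared by both groups, and it was chosen by the authors so that bulk translation in the mutant was strongly reduced. Because no spike-in was added, every share below is a share of that library's own footprints, and a higher share can go with fewer ribosomes on a gene.

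The altered codons are shown because they define the strain. They are given on the coding strand of *TIF34* (YMR146C) in the R64 genome, with the changed codon in capitals and 12 bases on either side, at chrXIII:557892-557918 and chrXIII:557841-557867 on the minus strand, both inside the single coding exon.
TIF34 codon 207: caattttctcctGATttaacatacttt
TIF34 codon 224: tcgttcttggtcGATgtatcgactcta

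eIF3 is the largest of the translation initiation factors. It binds the small ribosomal subunit, helps to recruit the mRNA and stays with the complex while it scans to the start codon. Its eIF3i subunit is a propeller-shaped protein that, together with eIF3g, forms part of the arm near the channel where mRNA enters the ribosome, and the DDKK substitutions release both from the rest of eIF3. A footprint is the stretch of mRNA that a ribosome shields from nuclease, so the count of footprints on a gene reflects both how much of its mRNA there is and how many ribosomes sit on each copy.

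The footprint libraries held 6177463 and 5136423 counted reads in *eIF3i DDKK* cells, against 29982592 and 26747366 in WT, and the mRNA libraries held 5048425 and 4389212, against 12164617 and 6924926. Mutant libraries were shallower in both assays, so that depth and genotype cannot be told apart, and depth sets the counting error of each share. For a gene with few reads such as *HAC1*, 69 of the reads of the first mutant library gave a share of 0.00112% with a 95% Wilson interval of 0.000883% to 0.00141%. These intervals cover counting error only. The cells expressed the markers of an a-type strain, with 2680 and 1944 footprint reads on the pheromone receptor gene *STE2* in *eIF3i DDKK* cells and 8349 and 7477 in WT, whereas the alpha-factor gene *MFALPHA1* had 8 and 9 against 16 and 13. *TRP1*, which the genotype gives as deleted, had 34 and 12 reads against 81 and 74, so it was low but not at 0. *URA3* had 563 and 576 reads against 1239 and 1040. These marker counts are raw reads from WT libraries deeper than the mutant ones, so they do not compare shares. The unusual open reading frame YDR445C took 17.4% to 29.9% of the mRNA reads of a library and at most 0.0625% of its footprints, and it was left out of the mRNA totals.

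The footprints of *eIF3i DDKK* cells were distributed over genes differently from those of WT cells. To turn a WT distribution of footprints into a mutant one, 28.4% of the reads would have to be moved to other genes (mean over the 4 pairs of a mutant and a WT library, range 27.1% to 29.2%). The same measure was 9.57% between the mutant replicates and 4.73% between the WT replicates. With 2 libraries per group an exact permutation test cannot give a two-sided p below 0.33, so no test is given for such a single value. The distribution was also flatter in the mutant. The 10 genes with most footprints held 13.3% and 12.2% of all reads in *eIF3i DDKK* cells, against 20.7% and 20.0% in WT, and the 100 largest held 41.2% and 37.6% against 49.4% and 48.7%. It took 154 and 183 genes to reach 50% of the footprints in the mutant, and 105 and 110 genes in WT.

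Losses were concentrated on a few genes and gains were spread over many. Mean share was lower in *eIF3i DDKK* cells for 1718 genes, whose summed share fell by 27.9 percentage points, and 8 of these genes accounted for 42.3% of that loss. Mean share was higher for 3521 genes, and the 8 largest gains made up 10.3% of the total. The loss reached 50% of its total with 11 genes and the gain with 102. The 137 tested genes of cytosolic ribosomal proteins took 45.2% of all gains, whereas the 43 genes on the glycolysis and heat shock lists took 62.9% of all losses.

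Gene by gene, 2089 genes had a higher share (39.8% of the 5244 tested) and 714 a lower share (13.6%) at an adjusted p under 0.05 (edgeR's quasi-likelihood test, Benjamini-Hochberg adjustment over all genes tested). Both mutant libraries lay above both WT libraries for 2932 genes (55.9%) and below them for 1252 (23.9%). Because the lost share came from genes with very many reads, the median log2 change of all genes was 0.31 rather than 0. Scaling by the trimmed mean of M-values (TMM), which centers the typical gene, moved that median to 0.01 and gave 2638 calls (50.3%), with 1315 genes higher (25.1%) and 1323 lower (25.2%), so that higher calls made up 49.8% of calls instead of 74.5%. All 1315 TMM-higher genes were also higher by share and all 714 genes lower by share were also lower by TMM. With DESeq2, which also centers the typical gene, 1183 of 5239 genes were higher (22.6%) and 1168 lower (22.3%). Without the first WT library the calls were 821 higher and 292 lower, and without the second WT library 1131 and 318.

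**Figure D1:**
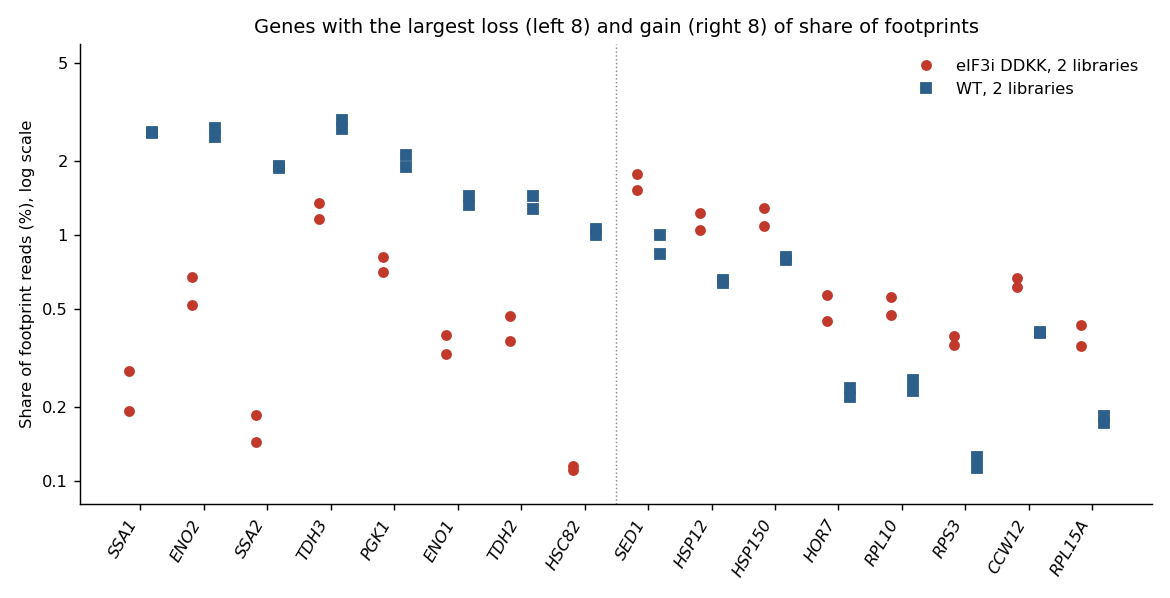
Share of footprint reads in percent (log axis) of the 8 genes with the largest loss (left) and the 8 with the largest gain (right) of share, with 1 point for each of the 2 *eIF3i DDKK* libraries (circles, left of each pair) and each of the 2 WT libraries (squares, right of each pair). These genes were picked among those whose mutant and WT libraries do not overlap, so their separation was a condition. The losses (*SSA1*, 0.193% and 0.280% against 2.61% and 2.62%) are deeper than the gains (*SED1*, 1.52% and 1.77% against 0.839% and 0.997%).

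Start codon contexts of selected genes that lost or gained share are shown for comparison by eye, since eIF3 acts in the steps before the start codon is chosen. The genes were picked by hand, and most of them are among the genes named for the largest gains or losses of share. Each run holds 12 bases before the start codon and 6 after it in the R64 genome, on the coding strand, with the base at position -3 and the start codon in capitals. The first 6 lost share and the last 6 gained it.
SSA1: ataacagatAatATGtcaaaa
HSC82: tcattctgaAatATGgctggt
ENO2: catacaataAtaATGgctgtc
TDH3: taaacaaacAaaATGgttaga
HAC1: acaaccgccActATGgaaatg
GCN4: aatacaaatAaaATGtccgaa
SED1: cgctctattAagATGaaatta
RPS3: caaactacaAaaATGgtcgct
RPL10: aactaattcAagATGgctaga
HOR7: taataataaAaaATGaagtta
HSP12: ctaaatacaAcaATGtctgac
CTT1: tcagcttcaCaaATGaacgtg
The sites lie at chrI:141423-141443 on the minus strand (*SSA1*), chrXIII:632343-632363 on the plus strand (*HSC82*), chrVIII:451315-451335 on the plus strand (*ENO2*), chrVII:883802-883822 on the minus strand (*TDH3*), chrVI:75167-75187 on the plus strand (*HAC1*) and chrV:139755-139775 on the minus strand (*GCN4*). The other sites are all on plus strands, at chrIV:600781-600801 (*SED1*), chrXIV:302668-302688 (*RPS3*), chrXII:282915-282935 (*RPL10*), chrXIII:774740-774760 (*HOR7*), chrVI:107244-107264 (*HSP12*) and chrVII:654622-654642 (*CTT1*). All 6 that lost share and 5 of the 6 that gained it had A at -3, as did 3198 of the 5213 genes whose context was read, and *CTT1* had C.

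By share, 13.6% of all tested genes were lower and 39.8% higher, and under TMM 25.2% and 25.1%. Glycolysis lost more footprint share than any other list. Its 17 genes held 6.43% and 5.55% of footprints in *eIF3i DDKK* cells, against 15.1% and 15.1% in WT, and 16 of the 17 were lower by the test, with 0 higher (17 and 0 under TMM, and 10 lower without either WT library). The median log2 change of the list was -1.54 after subtraction of the median over all genes, and that of the mRNA was -1.50. *ENO2*, the main enolase gene in glucose-grown cells, held 0.674% and 0.521% in *eIF3i DDKK* cells, against 2.72% and 2.50% in WT (log2 change -2.13, SE 0.195, adjusted p = 0.000867, edgeR). *PGK1*, which encodes phosphoglycerate kinase and shares no sequence window of footprint size with another gene, held 0.815% and 0.707% against 2.11% and 1.90% (-1.40, SE 0.171). The share of *TDH3*, the gene of the major glyceraldehyde-3-phosphate dehydrogenase, was 1.35% and 1.16% against 2.70% and 2.94% (-1.17, SE 0.173, adjusted p = 0.00256, edgeR). Non-overlap of the libraries of the 2 strains was a condition for naming these 3 genes. In *ENO2* and *ENO1* 42.4% of 28-nt windows are the same, as are 47.2% of those of *TDH3* with its sister genes, so values within these pairs are uncertain, although *ENO1* (-1.94) and *TDH2* (-1.70) lay on the same side.

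Genes of ethanol fermentation followed, with 1.45% and 1.28% of footprints for 16 genes in *eIF3i DDKK* cells, against 3.17% and 3.15% in WT, and 9 genes lower and 1 higher (11 and 0 under TMM). Over all tested genes, 13.6% were lower and 39.8% higher by share, and 25.2% and 25.1% under TMM. *PDC1*, the main pyruvate decarboxylase gene, held 0.813% and 0.624% against 1.52% and 1.48% (log2 change -1.07, SE 0.186, adjusted p = 0.00401, edgeR's quasi-likelihood test). *ADH1*, which encodes the alcohol dehydrogenase that makes ethanol, held 0.312% and 0.270% against 0.994% and 0.939% (-1.73, SE 0.164). The glucose transporter gene *HXT2* had 111 and 98 footprint reads against 3693 and 2863, and its share was 6.22-fold lower in the mutant (log2 change -2.64, SE 0.152, adjusted p = 2.00e-04, edgeR). Its list was mixed. Of 9 tested hexose transporter genes, 3 were lower and 2 higher (5 and 1 under TMM). The higher ones were *RGT2* (1.26) and *HXT5* (0.73). Summed shares of the list overlapped, with 0.161% and 0.326% for the mutant libraries and 0.294% and 0.318% for the WT libraries. Their difference of -0.0623 percentage points became 0.0203 when the first mutant library was left out.

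Counts of chaperone genes are set here against all tested genes, of which 13.6% were lower and 39.8% higher by share. Of the 47 lists, heat shock proteins and cytosolic chaperones had the lowest median change. The 26 genes held 3.38% and 4.32% of footprints in *eIF3i DDKK* cells, against 11.0% and 11.7% in WT, with 16 lower and 4 higher (19 and 2 under TMM). Their median log2 change was -2.03 when that of all genes is subtracted, and their mRNA median was -1.78 on the same scale. *SSA4*, the strictly heat-induced Hsp70 gene, had 847 and 1021 footprint reads against 167026 and 205945, or 0.0137% and 0.0199% against 0.557% and 0.770%, a 39.5-fold lower share (log2 change -5.31, SE 0.287, adjusted p = 0.000197, edgeR). *HSC82* and *HSP82*, the constitutive and the inducible Hsp90 genes, had log2 changes of -3.19 and -3.49, and 0.110% and 0.115% of mutant footprints lay on *HSC82*, against 1.00% and 1.06% of WT footprints. *SSA1* and *SSA2*, which encode the abundant cytosolic Hsp70 proteins, had changes of -3.47 and -3.52, but about 65.0% of the windows of *SSA2* occur in another gene, which makes the split between the pair uncertain. *BTN2*, whose product sorts aggregated proteins, had 98 and 80 reads against 5605 and 6343 (-3.75, SE 0.179). Not every gene on this list fell. *HSP12* and *HSP150*, named for heat shock but encoding a membrane-protective and a cell wall protein, were among the 4 higher genes, which numbered 2 without either WT library. *HSP150* had a log2 change of 0.57 (adjusted p = 0.0251, edgeR), and lost the call under TMM (adjusted p = 0.329), with DESeq2 (0.191) and without the first (0.246) or the second WT library (0.198).

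The chaperones of the organelles lost share with them. Their counts, too, stand beside 13.6% of all tested genes lower and 39.8% higher by share. In mitochondria, 32 genes for chaperones and protein import held 0.431% and 0.465% of footprints in *eIF3i DDKK* cells, against 1.47% and 1.50% in WT, with 21 lower and 2 higher (26 and 1 under TMM). *HSP60*, the mitochondrial chaperonin, held 0.0629% and 0.0574% against 0.450% and 0.446% (log2 change -2.90, SE 0.158, adjusted p = 0.000197, edgeR), and *SSC1*, the Hsp70 motor of protein import, had a change of -2.32 (SE 0.151). In the endoplasmic reticulum (ER), 36 genes for protein folding, translocation and the unfolded protein response held 0.331% and 0.297% against 1.15% and 1.13%, with 24 lower and 3 higher (32 and 1 under TMM). *KAR2*, the ER Hsp70, held 0.0201% and 0.0186% against 0.293% and 0.284%, a 14.9-fold lower share (-3.90, SE 0.162). *PDI1*, which forms disulfide bonds in the ER, held 0.0725% and 0.0645% against 0.356% and 0.347% (-2.36, SE 0.156). The lower genes numbered 8 without either WT library for mitochondria, and 15 without the first and 16 without the second for the ER.

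*HAC1*, which encodes the transcription factor of the unfolded protein response, lost most of its share of footprints. It had 69 and 56 footprint reads in *eIF3i DDKK* cells, against 8998 and 7842 in WT, a 26.8-fold lower share (log2 change -4.75, SE 0.150, adjusted p = 6.18e-05, edgeR's quasi-likelihood test). Its share of mRNA reads was higher in the mutant by a log2 change of 1.03 (adjusted p = 0.000813, edgeR), and spliced and unspliced *HAC1* mRNA are not separated in the counts. *GCN4*, the activator of amino acid synthesis genes whose translation is set by short upstream reading frames, had 61 and 44 footprint reads against 464 and 404 (log2 change -0.72, SE 0.180, adjusted p = 0.0142) while its mRNA share was higher by 1.12 (adjusted p = 0.000451, both edgeR). The *GCN4* footprint call was lost without the first WT library (adjusted p = 0.135) and without the second (adjusted p = 0.104), although both mutant libraries lay below both WT libraries.

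Among genes called in both readouts, footprint and mRNA changes otherwise mostly had the same direction. Over 5243 genes the log2 changes of both readouts were correlated at 0.76 (Pearson) and 0.77 (Spearman), given as a description because genes are not independent replicates. Of the genes with a higher footprint share, 1233 also had a higher mRNA share, 855 had no mRNA call and 1 had a lower mRNA share, where 29.8% and 7.74% of all 5243 genes tested in mRNA were higher and lower. Of the genes with a lower footprint share, 334 had a lower mRNA share, 368 had no mRNA call and 12 had a higher one. These 12 were *HAC1*, *GCN4*, *LST4*, *LEU2*, *YRA1*, *SER3*, *SET2*, *GDS1*, *CLN3*, *GIP3*, YGL140C and *APD1*, and the single gene of the opposite kind was *TCB2*. Apart from *HAC1* and *GCN4* they were named after their values were seen. With each library left out in turn, 2 of these genes, *HAC1* and *GDS1*, kept both calls. *GDS1* had log2 changes of -0.76 in footprints and 0.82 in mRNA, with 523 and 421 footprint reads in *eIF3i DDKK* cells and 4130 and 3842 in WT.

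**Figure D2:**
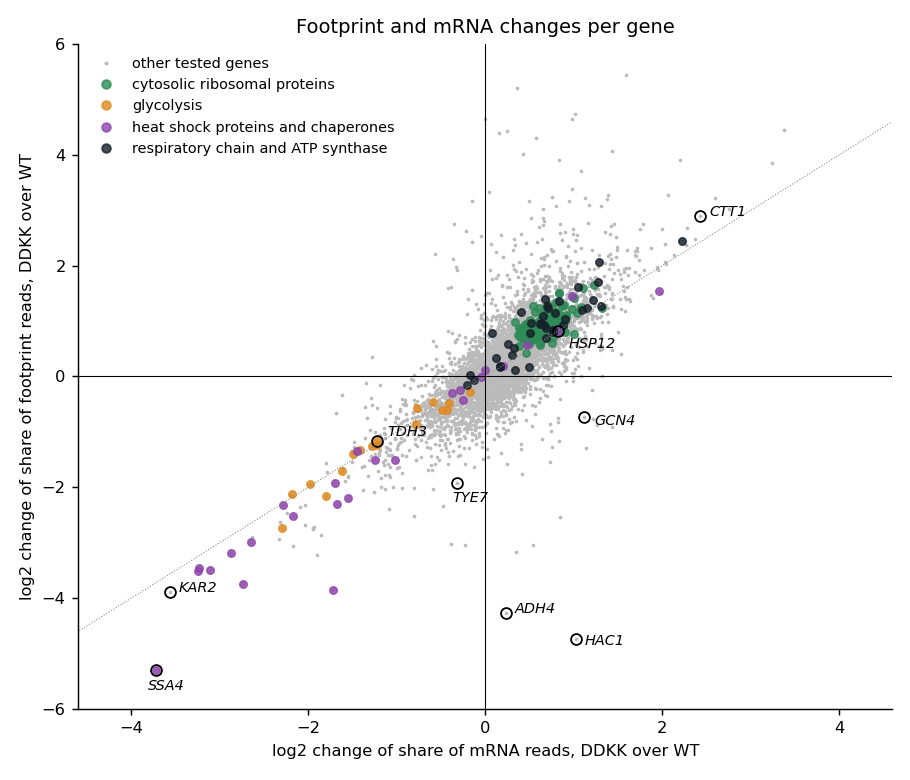
Log2 change of the share of footprint reads (y axis) against that of mRNA reads (x axis), *eIF3i DDKK* over WT, with 1 point per tested gene; colors mark 4 lists and circles mark named genes, and the dotted line is equal change. Over all genes the 2 changes were correlated (Pearson 0.76), whereas *HAC1* (1.03 in mRNA, -4.75 in footprints) and *ADH4* (0.23, -4.27) lie far below the line.

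Some other genes lost footprint share while their mRNA change did not pass. *ADH4*, a gene of the alcohol dehydrogenase family, had 11 and 7 footprint reads in *eIF3i DDKK* cells, against 875 and 862 in WT (log2 change -4.27, SE 0.235), and its mRNA change of 0.23 did not pass (adjusted p = 0.229, edgeR). *TYE7*, an activator of glycolytic genes, had 211 and 204 reads against 3866 and 3995 (-1.92, SE 0.152), with an mRNA change of -0.32, or -0.60 relative to the median gene, that did not pass (adjusted p = 0.111, edgeR). *EDE1*, an endocytosis scaffold, had 2003 and 1792 reads against 26139 and 25699 (-1.45, SE 0.146), with -0.41 in mRNA, or -0.68 relative to the median gene (adjusted p = 0.0608, edgeR). The difference between the 2 readouts was not tested here.

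Ribosomal proteins made the largest gain. The 57 genes of the small subunit held 11.4% and 10.1% of footprints in *eIF3i DDKK* cells, against 5.87% and 5.21% in WT, and the 80 genes of the large subunit held 16.8% and 14.8% against 8.90% and 7.89%. A higher share passed for 56 of 57 and for 79 of 80 genes, against 39.8% of all genes, and 0 were lower. Under TMM 45 and 57 were higher and 0 lower. Without the first WT library the counts of higher genes were 34 and 45, and without the second they were 20 and 27. Median changes were 0.64 and 0.60 above that of all genes, and the mRNA medians were 0.43 and 0.36 above. *RPS3*, a protein at the mRNA entry site of the ribosome, held 0.388% and 0.358% against 0.125% and 0.113%, 3.13-fold higher (log2 change 1.65, SE 0.155, adjusted p = 0.000932, edgeR). *RPL10*, which is added late to the large subunit, held 0.557% and 0.473% against 0.258% and 0.232% (1.07, SE 0.165). Many ribosomal protein genes exist as near-identical pairs, such as *RPS8A*, where 79.3% of windows occur elsewhere and the sources used here do not state how such reads were assigned, so values of single members are uncertain.

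**Figure D3:**
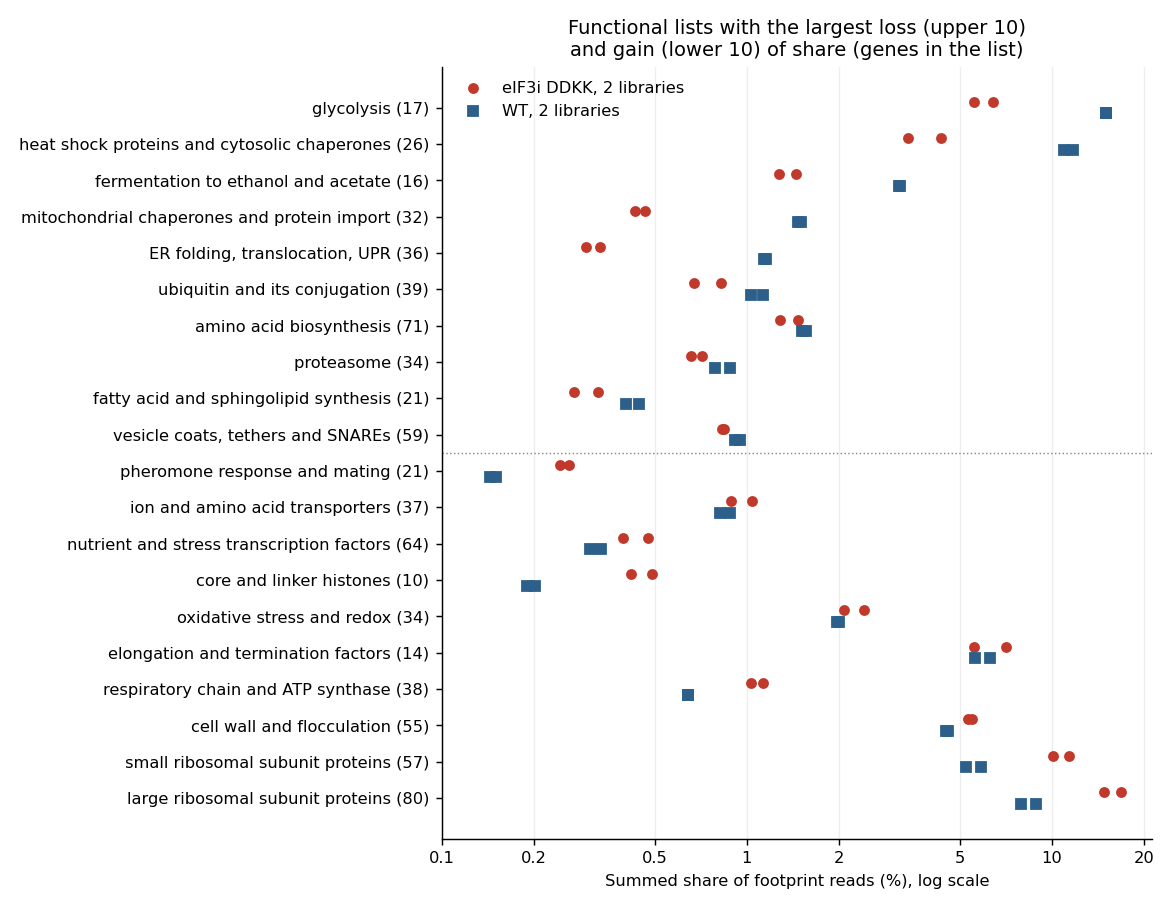
Summed share of footprint reads in percent (log axis) for the 10 functional lists with the largest loss (upper) and the 10 with the largest gain (lower), with the number of genes in brackets, circles for the 2 *eIF3i DDKK* libraries and squares for the 2 WT libraries. Glycolysis and heat shock genes lie well to the left in the mutant, both ribosomal protein lists lie to the right, and the libraries of elongation factors overlap.

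Apart from ribosomal proteins, the largest single gains included stress and cell wall proteins. *SED1*, a structural cell wall protein, held 1.52% and 1.77% in *eIF3i DDKK* cells, against 0.839% and 0.997% in WT (log2 change 0.84, SE 0.178, adjusted p = 0.00787, edgeR), but the adjusted p was 0.0840 under TMM, 0.145 without the first WT library and 0.0575 without the second, and 0.00565 with DESeq2. *HSP12*, a small membrane-protecting protein, held 1.05% and 1.23% against 0.654% and 0.636% (0.82, adjusted p = 0.00659, edgeR), with adjusted p = 0.0795 under TMM, 0.0992 without the first WT library, 0.0929 without the second and 0.00766 with DESeq2. *HOR7*, a very short protein of the cell envelope, held 0.447% and 0.568% against 0.238% and 0.220% (1.15, SE 0.177, adjusted p = 0.00279, edgeR) and stayed below 0.05 under each of these settings. Its mRNA change of 0.23 did not pass (adjusted p = 0.274, edgeR). The cell wall list as a whole was mixed, with 22 genes higher and 17 lower of 52, 13 and 20 under TMM, 9 and 5 without the first WT library, and 12 and 11 without the second. By share, 42.3% of the cell wall genes were higher and 32.7% lower, against 39.8% and 13.6% of all genes. *FLO11*, a flocculin, was on the lower side with 0.368% and 0.321% against 0.843% and 0.892% (-1.33, SE 0.161).

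Respiratory genes gained share while glycolysis lost it. For comparison, 39.8% of all tested genes were higher and 13.6% lower by share. The 38 nuclear genes of the respiratory chain and ATP synthase held 1.03% and 1.13% of footprints in *eIF3i DDKK* cells, against 0.643% and 0.640% in WT, with 30 higher and 0 lower by share (27 and 1 under TMM). *COX6*, a subunit of cytochrome c oxidase, held 0.0509% and 0.0563% against 0.0163% and 0.0168% (log2 change 1.70, SE 0.139, adjusted p = 0.000687, edgeR). *CYC7*, the minor isoform of cytochrome c, held 0.0223% and 0.0542% against 0.00617% and 0.00791% (2.44, SE 0.394), and its mutant libraries differed from each other by more than 2-fold while both stayed above WT. *COX26*, a small protein of the respiratory supercomplex, had 499 and 1154 reads against 190 and 203 (4.45, SE 0.481). In *CIT2*, which encodes citrate synthase of the glyoxylate cycle, 2087 and 2098 reads stood against 1897 and 2471 in much deeper WT libraries (2.26, SE 0.215). The list of the TCA and glyoxylate cycles was divided, with 9 of 26 genes higher and 6 lower (6 and 10 under TMM, 6 and 2 without either WT library).

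Single antioxidant genes rose. *CTT1*, cytosolic catalase, held 0.104% and 0.270% in *eIF3i DDKK* cells, against 0.0194% and 0.0312% in WT (log2 change 2.89, SE 0.465, adjusted p = 0.00316, edgeR). Its mutant libraries lay far apart but above both WT libraries. *GRX2*, a glutaredoxin whose gene overlaps another annotated one, held 0.109% and 0.171% against 0.0278% and 0.0338% (2.19, SE 0.245). As a whole the redox list stood near the background, with 15 of 33 genes higher (45.5%) and 5 lower (15.2%), against 39.8% and 13.6% of all genes, 6 and 8 under TMM, 4 and 2 without the first WT library and 5 and 2 without the second.

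Histones, the pheromone pathway and genes of meiosis gained share at lower levels. Their counts stand beside 39.8% of all tested genes higher and 13.6% lower by share. The 10 histone genes held 0.418% and 0.490% in *eIF3i DDKK* cells, against 0.202% and 0.190% in WT, with 8 higher and 0 lower by share, and with 8 and 2 under TMM. *HHT1* and *HHT2*, which encode the same histone H3, had log2 changes of 1.62 and 1.13, with 26.6% of windows in common. Of 20 tested genes of pheromone response and mating, 16 were higher and 1 lower (12 and 2 under TMM), and the list held 0.261% and 0.244% against 0.144% and 0.150%. *STE24*, a protease that processes the a-factor pheromone, was the lower one (-1.03, SE 0.134). All 15 tested genes of meiosis and sporulation were higher by share, 10 under TMM, 7 without the first WT library and 11 without the second, but their summed share was 0.0153% and 0.0213% against 0.00525% and 0.00627%. Of the 27 genes listed, 22 had counts, and the 7 of these that were not tested did not pass the minimum of mRNA reads. *MSH5*, a meiotic recombination gene, had 88 and 89 reads against 76 and 73 (2.58, SE 0.219), and *DIT1*, a spore wall gene, had 107 and 114 against 87 and 99 (2.58, SE 0.231).

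Transcription factor genes of nutrient and stress control stood near the background. Of 64 such genes, 25 were higher (39.1%) and 11 lower (17.2%), against 39.8% and 13.6% of all genes, with 18 and 19 under TMM, 14 and 6 without the first WT library and 17 and 6 without the second. *CIN5*, a stress-responsive activator, had 1015 and 2116 reads in *eIF3i DDKK* cells, against 1242 and 1299 in WT (log2 change 2.68, SE 0.400), and *GAT1*, an activator of nitrogen genes, had a change of 1.67 (SE 0.204). *YAP1*, the main activator of the oxidative stress response, was lower at -1.04 (SE 0.132). *SLT2*, the kinase of the cell wall integrity pathway, rose by 1.64 (SE 0.225), as did its target *PRM5* by 1.50 (SE 0.180), whereas *MSB2*, a sensor of the filamentous growth pathway, fell to 0.00722% and 0.00275% in the mutant, against 0.0294% and 0.0231% in WT (-2.39, SE 0.397). The G1 cyclin genes *CLN1* and *CLN2* both had changes of -1.32 (SE 0.172 and 0.210). Of 26 tested genes of cyclins and cell cycle control, 7 were higher and 8 lower (1 and 11 under TMM). Of 51 tested genes of TOR, Ras, protein kinase A and stress kinases, 12 were higher and 4 lower (5 and 18 under TMM).

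The gene of the altered subunit gained share. *TIF34* held 0.0701% and 0.0656% of footprints in *eIF3i DDKK* cells, against 0.0291% and 0.0294% in WT (log2 change 1.21, SE 0.137, adjusted p = 0.00130, edgeR), and its mRNA share was higher by 0.86. It was read from a plasmid in both strains, so its copy number is part of these values. The other eIF3 genes did not pass by share. *TIF32* (eIF3a) had a change of -0.08, *PRT1* (eIF3b) -0.04, *NIP1* (eIF3c) -0.24, *TIF35* (eIF3g) -0.00 and *HCR1* (eIF3j) -0.36, with adjusted p-values of 0.675, 0.857, 0.299, 0.991 and 0.0552 (edgeR). *HCR1* passed under TMM (adjusted p = 0.00841, edgeR), with DESeq2 (adjusted p = 0.000944) and without the first mutant library (adjusted p = 0.0177, edgeR). *NIP1* passed with DESeq2 (adjusted p = 0.0341) and without the first mutant library (adjusted p = 0.00350, edgeR), each time as lower.

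Among the other genes of the translation machinery, fewer passed as higher than among the ribosomal proteins. Higher calls made up 16% of other initiation factor genes and 14.3% of elongation and termination factor genes, against 39.8% of all genes. Lower calls made up 20% and 7.14%, against 13.6% of all genes. Of 25 other initiation factor genes, 4 were higher and 5 lower (2 and 7 under TMM, 1 and 0 without the first WT library, 1 and 1 without the second). *TIF11* (eIF1A) held 0.0311% and 0.0296% in *eIF3i DDKK* cells, against 0.0161% and 0.0151% in WT (log2 change 0.96, SE 0.128, adjusted p = 0.00201, edgeR). *DED1*, the helicase that helps scanning, held 0.0495% and 0.0400% against 0.0885% and 0.0808% (-0.92, SE 0.164, adjusted p = 0.00431, edgeR), and lost the call without the first WT library (adjusted p = 0.0583). Elongation and termination factors held 7.05% and 5.56% against 6.29% and 5.61%, so the libraries overlapped, and 2 of 14 genes were higher and 1 lower (0 and 2 under TMM, 0 and 0 without either WT library, 4 lower without the first mutant library). For factors that build ribosomes the counts depended on which library was left out. Of 57 genes of the small subunit processome 17 were higher and 0 lower, and of 68 genes for large subunit assembly 20 and 0, or 29.8% and 29.4% higher, where 39.8% of all genes were. Leaving out the second mutant library gave 37 and 40 higher, and leaving out the first gave 13 and 17 higher with 10 and 4 lower. With the first WT library left out 4 and 4 were higher, and 3 and 3 with the second. Their medians were -0.05 and -0.06 relative to that of all genes, and TMM gave 5 higher and 5 lower for the processome and 5 and 1 for the large subunit factors. Summed shares of the processome overlapped, at 0.475% and 0.365% in *eIF3i DDKK* cells and 0.368% and 0.337% in WT.

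Lists of large complexes are set here against all tested genes, of which 39.8% were higher and 13.6% lower by share. Higher subunits of RNA polymerases I and III (43.5%) stood near that share. Of 18 genes of the vacuolar ATPase, which acidifies the vacuole, 10 were higher and 1 lower (4 and 2 under TMM, 3 and 0 without the first WT library, 2 and 0 without the second). Subunits of RNA polymerases I and III had 10 of 23 higher and 1 lower (0 and 2 under TMM, 0 higher without either WT library), and nuclear pore and transport genes had 6 higher and 6 lower of 46 (2 and 18 under TMM, 0 and 2 without the first WT library, 2 and 1 without the second, 13 lower without the first mutant library). Mitochondrial ribosomal proteins had 15 of 45 genes lower in the large subunit and 15 of 32 in the small, with 1 higher in each (32 and 22 lower under TMM). Without the first WT library 6 and 5 were lower, and without the second 4 and 4. *NAM9*, a small subunit protein, had a log2 change of -1.30 (SE 0.131) with an mRNA change of -0.24 that did not pass (adjusted p = 0.230, edgeR), and *RML2*, a large subunit protein, -0.96 (SE 0.133). Summed shares of the mitochondrial small subunit overlapped, at 0.226% and 0.271% in *eIF3i DDKK* cells and 0.241% and 0.267% in WT. Proteasome genes held 0.657% and 0.716% against 0.787% and 0.881%, with 11 of 34 lower and 1 higher (25 and 1 under TMM, 2 lower without the first WT library, 0 without the second and 18 without the second mutant library). *UBA1*, the enzyme that activates ubiquitin, was lower at -1.60 (SE 0.147). The CCT chaperonin, which folds actin and tubulin, had 6 of 8 genes lower and 0 higher (8 and 0 under TMM), with *CCT6* at 0.0152% and 0.0120% against 0.0297% and 0.0267% (-1.06, SE 0.160, adjusted p = 0.00268, edgeR). That count was 1 without either WT library. The list as a whole held 0.127% and 0.111% in *eIF3i DDKK* cells, against 0.172% and 0.166% in WT.

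Further losses were found among enzymes of biosynthesis and genes of cell polarity. By the same test, 13.6% of all genes were lower and 39.8% higher. Of 71 genes of amino acid biosynthesis 24 were lower and 9 higher (39 and 3 under TMM, 10 and 2 without the first WT library, 13 and 2 without the second). *GDH1*, which makes glutamate from ammonia, held 0.00594% and 0.00473% in *eIF3i DDKK* cells, against 0.0345% and 0.0365% in WT, 6.64-fold lower (log2 change -2.73, SE 0.162, adjusted p = 0.000205, edgeR). *ACC1* and *FAS1*, the large enzymes of fatty acid synthesis, had changes of -1.99 (SE 0.238) and -1.51 (SE 0.291), while the list they belong to had 5 of 21 genes lower and 5 higher (10 and 1 under TMM, 3 and 1 without the first WT library, 4 and 1 without the second, 8 and 7 without the first mutant library). *LAC1*, a ceramide synthase, was among the higher ones at 1.28 (SE 0.132). Septins, bud neck and polarity genes had 16 of 36 lower and 4 higher (21 and 0 under TMM, 7 and 0 without either WT library). The trehalose and glycogen genes had no common direction, with 2 of 17 higher and 1 lower (1 and 3 under TMM). The mutant libraries decided these counts, which were 13 higher and 1 lower without the first mutant library and 1 higher and 8 lower without the second. Their summed share of 0.701% and 1.44% against 0.850% and 1.08% differed more between the mutant libraries than between the groups. Across all lists, 1545 tested genes were assigned and 3699 were in none. The genes in no list held 26.2% and 30.3% of footprints against 21.8% and 23.0%, with 1595 higher and 380 lower (1025 and 758 under TMM, 605 and 140 without the first WT library, 909 and 160 without the second).

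The largest log2 gains were on genes with few footprints in WT. YGL072C had 133 and 138 reads in *eIF3i DDKK* cells, against 15 and 16 in WT, 43.5-fold higher in share (log2 change 5.44, SE 0.259, adjusted p = 0.000190, edgeR), where its mRNA change was 1.59. YNL179C had 731 and 814 reads against 205 and 256 (4.08, SE 0.233). Neither ID has an entry in the RefSeq table, and overlap of the pair with other genes was not checked. YGL088W had 484 and 349 reads against 221 and 177 (3.39, SE 0.156), with 0.98 in mRNA. YHR022C, which overlaps another gene, had 1050 and 1502 against 444 and 462 (3.85, SE 0.278). Whether reads were assigned by strand is not stated in the sources used here, so reads from overlapping genes cannot be told apart. *GTO3*, a glutathione transferase, had 53 and 142 reads against 29 and 38 (3.90, SE 0.563), and *FMP16*, a protein found in mitochondria, had 1425 and 2030 against 743 and 1123 (3.23, SE 0.342).

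The change in share declined with the length of the gene. With the tested genes divided into 5 groups by counted coding length (the coding sequence less 60 nt at its ends), the median log2 change relative to all genes was 0.31 for genes of up to 639 nt, 0.17 up to 1005 nt, -0.00 up to 1443 nt, -0.11 up to 2088 nt and -0.32 for longer ones. Of the shortest 1050 genes 58.1% were higher and 5.43% lower, and of the longest 1049 genes 22.1% were higher and 23.7% lower. The shortest group held 24.0% and 25.1% of footprints in *eIF3i DDKK* cells, against 15.7% and 15.6% in WT, and the fourth held 11.9% and 12.5% against 20.6% and 21.3%. The order held without ribosomal proteins (0.27, 0.12, -0.01, -0.12 and -0.32). In mRNA it ran the same way over a narrower range, with 0.12 for the shortest and -0.15 for the longest genes.

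**Figure D4:**
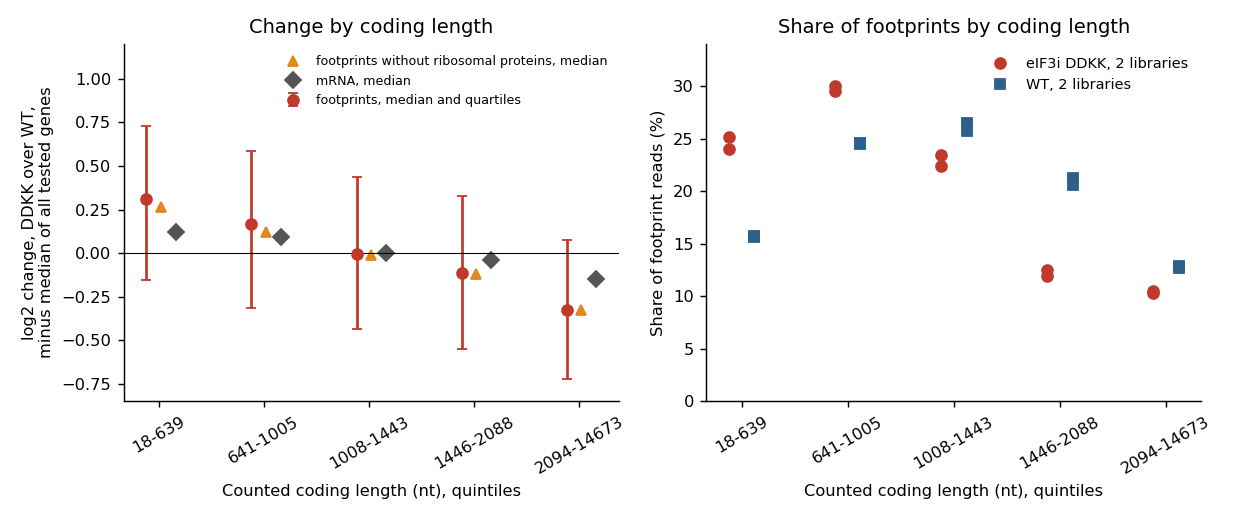
Left, log2 change of footprint share relative to the median of all tested genes by quintile of counted coding length in nt, with medians and quartiles, medians without ribosomal proteins and medians of the mRNA change; right, share of footprints in percent in the 2 *eIF3i DDKK* libraries (circles) and the 2 WT libraries (squares). The median declines from 0.31 in the shortest to -0.32 in the longest group, and the mutant circles lie above the WT squares in the 2 shortest groups.

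The start codon context showed smaller differences. Genes with A at position -3, the favorable base in yeast, had a median of -0.03 relative to all genes (3198 genes), those with G 0.01 (1019), those with C 0.06 (448) and those with T 0.13 (548). Genes with A held 80.8% and 79.9% of footprints in *eIF3i DDKK* cells and 83.3% and 82.9% in WT. Genes with an intron had a median of 0.47 (244 genes), but it was 0.15 for the 155 that do not encode ribosomal proteins. By chromosome, medians lay between -0.15 (VI) and 0.16 (III). The share on chromosome I was 1.63% and 1.65% against 4.87% and 4.82%, where *SSA1* alone held 0.193% and 0.280% against 2.61% and 2.62%.

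Replicates of the mutant differed more than those of WT. The log2 CPM values (reads scaled to library size, with 0.5 added) of replicate footprint libraries had a Pearson correlation across genes of 0.982 in *eIF3i DDKK* cells and 0.996 in WT, and the SD of their log2 difference was 0.385 and 0.184. Among 5122 genes with the same minimum of footprint reads, 89 were at least 2-fold higher in the second mutant library and 24 in the first, whereas in WT 7 were higher in the second and 2 in the first. *CTT1*, *CYC7*, *CIN5* and *COX26* are among the genes named above that were higher in the second mutant library by at least that fold.

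The direction of change was next compared with that in *eIF3a/b Degron* cells, which lose the whole of eIF3. Those cultures were grown at 25°C in raffinose medium with copper and then kept for 90 min at 36°C in medium with raffinose, galactose and the copper chelator BCS, and they have their own WT. Among 5306 genes tested there, 83% were called, with 2630 higher (49.6%) and 1774 lower (33.4%). No library is shared by the 2 comparisons. Medium, temperature, time and strain, including the *gcn2* disruption of the Degron strains, differ between them. The effect of the mutation and of the conditions thus cannot be told apart. The signed difference of the log2 changes, *eIF3i DDKK* minus *eIF3a/b Degron*, was positive for 1419 of 5228 genes (27.1%) and negative for 1228 (23.5%) by an interaction term (edgeR, adjusted p under 0.05). A positive difference means a larger rise or a smaller fall in *eIF3i DDKK* cells. Chaperone genes were divided. The difference was positive for 8 and negative for 4 of 26 genes on the heat shock list, positive for 5 and negative for 5 of 36 ER genes, and positive for 25 of 32 genes for mitochondrial chaperones and import, with 0 negative. *SSA1* had log2 changes of -3.47 in *eIF3i DDKK* and -3.57 in *eIF3a/b Degron* cells, a difference of 0.10 (SE 0.214, adjusted p = 0.711, edgeR), and *KAR2* had -3.90 and -3.77, a difference of -0.12 (SE 0.136, adjusted p = 0.477, edgeR), and neither difference passed. *HSP60* did differ, with -2.90 and -3.63, a difference of 0.73 (SE 0.139, adjusted p = 0.00192, edgeR), as did *PDI1*, with -2.36 and -3.34, a difference of 0.98 (SE 0.140, adjusted p = 0.000400, edgeR). Glycolytic genes fell less in *eIF3i DDKK* cells, with 13 of 17 genes differing in that direction and 0 in the other. *TDH3* had changes of -1.17 and -3.17, a difference of 2.01 (SE 0.154, adjusted p = 2.55e-05, edgeR).

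Log2 changes of cytosolic ribosomal proteins and ribosome assembly factors were lower in *eIF3i DDKK* than in *eIF3a/b Degron* cells, and mitochondrial ribosomal proteins fell less. Of the ribosomal protein genes, 51 of 57 in the small and 62 of 80 in the large subunit had a negative difference and 0 a positive one, where median changes were 0.95 and 0.91 in *eIF3i DDKK* and 1.62 and 1.56 in *eIF3a/b Degron* cells. For the small subunit processome 56 of 57 genes, and for large subunit assembly 68 of 68, had a negative difference, with DDKK medians of 0.26 and 0.25 and Degron medians of 1.65 and 1.73. The respiratory list went the other way, as the difference was positive for all 38 genes, with a median change of 0.94 in *eIF3i DDKK* and -0.61 in *eIF3a/b Degron* cells. For mitochondrial ribosomal proteins the difference was positive for 43 of 45 genes in the large and 30 of 32 in the small subunit, and both lists lay below 0 in each mutant, with medians of -0.30 and -0.35 in *eIF3i DDKK* and -1.17 and -1.22 in *eIF3a/b Degron* cells. On the TCA cycle list it was positive for 25 of 26 genes and negative for 1, with medians of 0.31 and -1.61. *HSP12* had log2 changes of 0.82 and -2.73, a difference of 3.55 (SE 0.277, adjusted p = 2.57e-05, edgeR), and *COX6* 1.70 and 0.11, a difference of 1.58 (SE 0.149). On the pheromone and mating list it was negative for 12 of 20 genes and positive for 0.

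**Figure D5:**
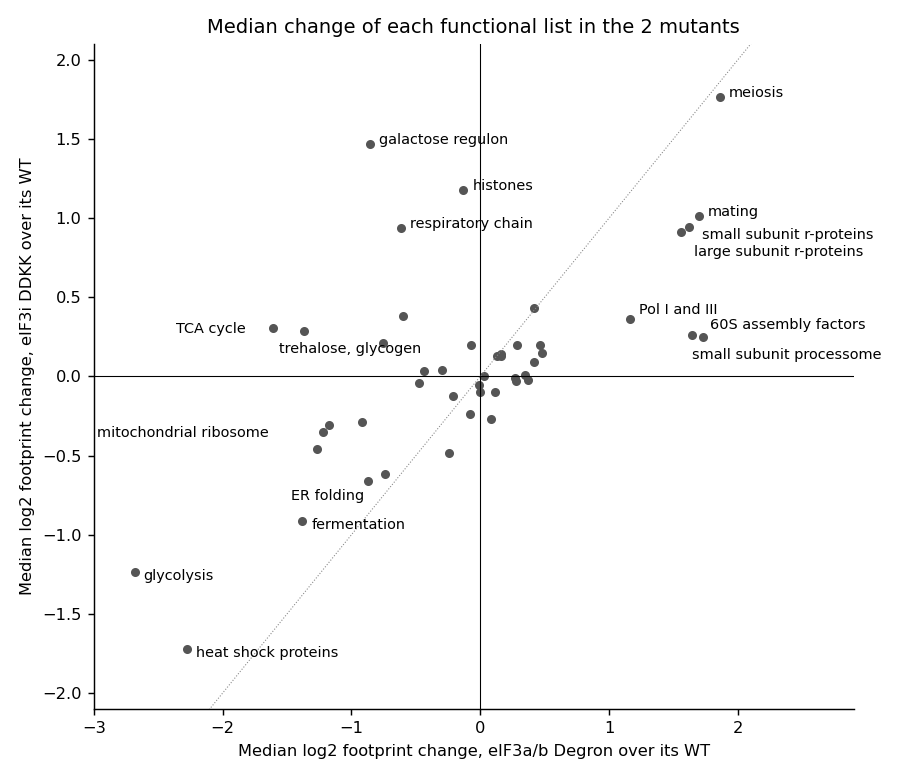
Median log2 change of footprint share of each of the 47 functional lists in *eIF3i DDKK* cells (y axis) and in *eIF3a/b Degron* cells (x axis), each over its own WT, with 1 point per list and a dotted line of equal change. Ribosome assembly lists lie far to the right of the line (Degron medians of 1.65 and 1.73), and the respiratory chain list lies above it, with a Degron median of -0.61.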

How the data were processed

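Footprint and mRNA read counts per coding sequence were analyzed as the authors deposited them, without normalization, for 2 mutant and 2 WT libraries of each assay in the DDKK background and for the Degron footprint libraries used for comparison. Per the labels, reads were aligned to sacCer3 with Bowtie2 2.2.6.0 and TopHat2 2.1.0 after CASAVA 1.8, and the authors used DESeq2. The methods leave out the codons at both ends of each coding sequence, by 60 nt in 5196 of 5201 intronless genes. Of 5647 IDs, 5450 matched the RefSeq R64 annotation. A deposited table with the authors' own log2 fold changes and p-values was left out.

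Shares are reads of a gene over all counted reads of the library. They were tested with edgeR 4.0.16 (quasi-likelihood F-test, R 4.3.3) on footprint libraries alone, with total counts as the scale, for genes past the mRNA minimum of the methods, at an adjusted p under 0.05. Standard errors were derived from the F statistic. TMM scaling, DESeq2 1.42.0, a replicate block, left-out libraries, no filter, at least 10 reads in every footprint library, all 8 libraries in one fit, an adjusted p under 0.01, a 1.5-fold minimum and reads per base were alternatives. With a library left out, the lone sample is assumed to vary like the others. Leaving out libraries for the list counts, and for the genes whose footprints and mRNA moved in opposite directions, was added after the data were seen. On simulated counts with 200 genes changed 2-fold, the footprint test recovered 184, and 7 of its 191 calls were false. The simulation changed equal numbers of genes up and down. It thus did not cover the shift of the median gene in these data, nor calls that depend on the scaling.

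The members, the 47 functional lists and the rule for naming genes were chosen with earlier results of these data known. Named were the 8 largest gains and losses of share among genes past the threshold with no overlap of the groups, the 8 largest log2 changes each way among those past the same minimum in footprints, the eIF3 genes, *GCN4* and *HAC1*, up to 2 members each way per list, and the 5 largest differences from Degron each way. Other steps used Python 3.11.15, pandas 2.3.3, numpy 2.4.6 and matplotlib 3.10.9. Windows shared between genes were counted at 28 nt.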

Additional observations from a re-analysis of the deposited data

Results flagged for a closer look

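The genes with the largest differences between the footprint change in *eIF3i DDKK* cells and that in *eIF3a/b Degron* cells are given here, because the 2 mutants differed by an interaction test (edgeR's quasi-likelihood test). The log2 difference, *eIF3i DDKK* minus *eIF3a/b Degron*, was 5.93 for *SPO24*, 5.17 for YGR067C, 4.93 for *MPC3*, 4.86 for *CIT2* and 4.27 for *SFC1*. It was -5.52 for YDR222W, -3.66 for *DBP2*, -3.24 for *ATF2*, -3.10 for *HXT2* and -2.85 for *RIO1*. With single libraries left out, and under TMM, DESeq2 and the replicate block, the highest adjusted p of the 10 was 0.00141, for *DBP2*. *SPO24* had 4996 and 5591 footprint reads in *eIF3i DDKK* cells, against 3913 and 4489 in WT, and its share changed by 2.67 there and by -3.26 in *eIF3a/b Degron* cells. *SFC1*, a mitochondrial carrier of succinate and fumarate, changed by 2.76 and -1.51, and *CIT2* by 2.26 and -2.60. *HXT2* changed by -2.64 in *eIF3i DDKK* and by 0.46 in *eIF3a/b Degron* cells. The media differ between the backgrounds, and the part of the carbon source in these differences was not tested.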

How the results depend on the processing

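Scaling and the WT libraries moved the counts most. For footprints, 2803 genes were called in all, 1706 at an adjusted p under 0.01 and 1113 to 3372 with single libraries left out. Higher genes numbered 2089, and 1315 under TMM, 1183 with DESeq2, 1310 at an adjusted p under 0.01 and 821 to 2454 with single libraries left out. Lower genes numbered 714, and 1323, 1168, 396 and 292 to 918 under the same settings. For mRNA, 1966 genes were called, 1240 with DESeq2, 1042 with YDR445C kept in the totals and 888 to 2452 with single libraries left out. Higher mRNA numbered 1560, and 633 under TMM, 548 with DESeq2, 834 with YDR445C and 669 to 1890 with single libraries left out, and lower mRNA 406, and 736, 692, 208 and 219 to 587. The redistributed share was 25.4% from reads per base, against 28.4%, and 27.7% to 29.2% with single libraries left out. The difference from Degron was within 1.5 times under each alternative. Of 185 genes fixed by the naming rule 178 were called. TMM left 38 of these below the threshold, DESeq2 35, the first WT library 78 and the second 70 when left out, the first mutant library 1 and the second 4, and 0 changed sign. The labels do not say that equal replicate numbers share a day or batch, and there are only 2 pairs, whose deviations correlated at 0.43 across genes. The replicate block gave 2414 higher and 910 lower footprint genes, 1995 and 540 mRNA genes, lost 0 of the 178 calls and added *DBP2* and *HCR1*. Summed shares of 33 of 47 lists moved by at least 1 SD when taken per base. Elongation factors turned from a gain of 0.354 points to -0.764 per base and to -0.395 without the first mutant library, and trehalose and glycogen genes from 0.105 to -0.265 without the second. The causes were not tested. Depth limits genes with few mutant reads, and 18 tested genes had at most 3 footprint reads in every library.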
